A study of Homo sapiens with 12 samples.

Results

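The genes described here are the replication-dependent histone genes of human chromosome 6. They were taken as every protein-coding gene on chromosome 6 whose symbol starts with H1-, H2AC, H2BC, H3C or H4C, and 55 of the 19974 protein-coding genes of chromosomes 1 to 22 and X met this rule. They comprise 6 genes for the linker histone H1, 12 for H2A, 15 for H2B, 10 for H3 and 12 for H4. The series mapped histone modifications by chromatin immunoprecipitation and sequencing in KBM-7, a human cell line with a near-haploid genome that was established from a patient with chronic myeloid leukaemia. All samples came from this cell line, untreated and grown in IMDM with fetal calf serum, and chromatin was fixed with formaldehyde and sonicated to about 300 bp. There was 1 library each for the acetylation marks H3K9ac, H3K27ac and H4K16ac and for the methylation marks H3K4me3, H3K4me2, H3K4me1, H3K79me2, H3K36me3 and H3K27me3, and the 3 inputs entered no comparison. The measurements are the authors' called intervals on GRCh38, which carry no score, so that each gene either has or lacks a called interval of a mark and the covered length is the sole size that can be given.

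Replication-dependent histone genes supply the nucleosome core and linker proteins needed to package newly copied DNA, and most of their transcription falls in S phase. Their transcripts are short, lack introns and end in a stem-loop in place of a poly(A) tail, and the genes sit in clusters that gather at a nuclear body, the histone locus body, around the coactivator NPAT. H3K4me3, H3K9ac and H3K27ac are marks of active promoters, and H3K4me2 flanks them. H3K4me1 is typical of enhancers and promoter flanks, H3K79me2 and H3K36me3 lie over transcribed gene bodies, and H3K27me3 is the mark of Polycomb repression.

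With 1 library per mark there is no replicate error, and no test was run. The depth of the libraries is unknown, so the absence of an interval means that none was called, not that the mark was absent. The labels H3K36me3 and H4K16ac held identical intervals and are given as 1 set, named H3K36me3/H4K16ac, which leaves 8 sets. Which of these marks the intervals belong to cannot be told, so the set cannot be read as a mark of transcribed bodies. The H3K27ac set was the smallest, with 3368 regions after joining of overlapping or adjacent intervals, against 14803 for H3K4me3, 19505 for H3K9ac and 50132 for H3K4me2. A gene was counted as having a set when the window made of its annotated span and 1 kb on either side held at least 1 bp of it.

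The promoters of 8 members, picked by H3K4me3 alone, are printed first. They are in each class the gene with the most H3K4me3 in its window, then the first 3 genes by position without any. No member with H3K9ac or H3K27ac but without H3K4me3 is among them. Each line is the 250 bases before the RefSeq start (GRCh38.p14), written 5′ to 3′ on the strand of the gene. The line of H3C4 is also the promoter of the H2A gene H2AC7 and is no example of the H3 class. The lines of H2AC1 and H2BC1 are largely the same DNA on opposite strands. Capitals mark 4 motifs on either strand, so that their reverse complements are in capitals too. TATAAA is the core of the TATA box and CCAAT that of the CCAAT box. ATTTGCAT is the octamer read by OCT1, and GGTCCG is the core of an H4 promoter element read by HINFP. The first 5 lie at chr6:26056471-26056720 (minus strand), chr6:26123922-26124171 (plus strand), chr6:26157871-26158120 (plus strand), chr6:26199294-26199543 (minus strand) and chr6:26204360-26204609 (plus strand), and the last 3 at chr6:25726563-25726812 (minus strand), chr6:25726527-25726776 (plus strand) and chr6:26017788-26018037 (minus strand).
H1-2: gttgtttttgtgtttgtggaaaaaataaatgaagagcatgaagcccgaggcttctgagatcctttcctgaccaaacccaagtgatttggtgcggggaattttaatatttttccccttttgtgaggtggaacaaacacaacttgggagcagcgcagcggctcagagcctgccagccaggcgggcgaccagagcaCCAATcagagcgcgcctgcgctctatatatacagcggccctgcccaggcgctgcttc
H2AC6: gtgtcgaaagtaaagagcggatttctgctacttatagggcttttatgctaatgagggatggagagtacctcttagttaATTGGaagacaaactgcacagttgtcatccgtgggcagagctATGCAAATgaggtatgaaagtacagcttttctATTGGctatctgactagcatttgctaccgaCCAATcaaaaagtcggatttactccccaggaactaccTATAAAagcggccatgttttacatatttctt
H2BC5: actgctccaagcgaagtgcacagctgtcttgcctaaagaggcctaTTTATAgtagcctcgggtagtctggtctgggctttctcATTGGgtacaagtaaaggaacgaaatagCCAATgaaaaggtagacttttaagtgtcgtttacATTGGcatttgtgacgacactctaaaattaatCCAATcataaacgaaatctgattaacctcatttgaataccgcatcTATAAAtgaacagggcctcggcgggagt
H3C4: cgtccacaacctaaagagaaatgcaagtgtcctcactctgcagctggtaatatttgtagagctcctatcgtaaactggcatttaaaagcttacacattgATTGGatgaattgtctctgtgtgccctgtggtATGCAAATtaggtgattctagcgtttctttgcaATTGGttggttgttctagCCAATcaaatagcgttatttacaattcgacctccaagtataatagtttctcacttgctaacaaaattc
H4C5: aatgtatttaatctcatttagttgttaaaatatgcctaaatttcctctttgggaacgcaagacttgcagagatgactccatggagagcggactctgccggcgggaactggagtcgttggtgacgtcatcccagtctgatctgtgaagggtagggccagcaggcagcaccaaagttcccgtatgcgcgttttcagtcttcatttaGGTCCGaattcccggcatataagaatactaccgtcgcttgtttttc
H2AC1: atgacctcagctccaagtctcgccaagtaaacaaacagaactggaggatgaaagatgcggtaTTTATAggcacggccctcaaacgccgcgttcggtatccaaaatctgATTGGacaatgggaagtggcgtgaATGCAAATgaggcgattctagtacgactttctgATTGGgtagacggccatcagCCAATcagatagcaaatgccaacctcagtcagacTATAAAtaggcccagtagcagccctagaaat
H2BC1: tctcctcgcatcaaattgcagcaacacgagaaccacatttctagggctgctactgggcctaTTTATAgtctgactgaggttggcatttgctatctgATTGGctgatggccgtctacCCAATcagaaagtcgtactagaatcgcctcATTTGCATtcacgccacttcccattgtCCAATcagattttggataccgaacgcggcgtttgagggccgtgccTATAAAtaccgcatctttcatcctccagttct
H1-1: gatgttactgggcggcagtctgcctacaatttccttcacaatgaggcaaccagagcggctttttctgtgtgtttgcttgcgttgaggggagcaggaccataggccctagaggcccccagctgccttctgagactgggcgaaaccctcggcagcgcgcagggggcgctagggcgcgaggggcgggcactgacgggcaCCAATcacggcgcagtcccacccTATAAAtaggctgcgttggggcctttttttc

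Promoter sequences were at hand for 50 of the 55 members, counted from 250 bases before to 50 after the start. The TATA box core was found in 33 of these (66%), against 9.64% of all 15812 protein-coding promoters of the same length. A match could lie anywhere in the promoter. At H2BC4, H2BC6, H2AC8, H3C6, H2BC14 and H2BC17 the only match before the start lay between -220 and -157, counted from the start. The CCAAT box was found in all 40 promoters of H1, H2A, H2B and H3 genes and in 3 of 10 H4 promoters, against 36.3% of all promoters. The octamer was present in 9 of 11 H2A and 12 of 15 H2B promoters, against 1.70% of all promoters, and in no H1 or H4 promoter. The 1 H3 promoter with it is that of H3C4, whose annotated start is that of the H2A gene H2AC7. The core of the H4 element stood in 9 of 10 H4 promoters and 1 of 8 H3 promoters, against 14.5% of all promoters, and in none of the other classes. The octamer, the H4 element and the CCAAT box thus followed the classes in part. The TATA box core did not, with 50% of H1, 72.7% of H2A, 73.3% of H2B, 62.5% of H3 and 60% of H4 promoters. H2A and H2B were not told apart by the motifs, nor were H1 and H3 beyond single promoters. Promoters of divergent H2A and H2B genes overlap, and 1 site can be counted in both, as the octamer of H2AC1 and H2BC1 was. The H2A and H2B counts are therefore not independent. Of the lines above, H4C5 carries the H4 element and none of the other motifs, and H2AC6 carries the TATA box, the CCAAT box and the octamer.

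The motifs were found at similar shares of members with and without H3K9ac. The TATA box core was found in 19 of 30 promoters with the mark in the window and 14 of 20 without it, the CCAAT box in 25 of 30 and 18 of 20, the octamer in 14 of 30 and 8 of 20, and the H4 element in 6 of 30 and 4 of 20. H2AC1 and H2BC1, printed above with the TATA box, the CCAAT box and the octamer, had none of the active marks. A match of letters is not a bound site.

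H3K27ac was the mark with the largest excess at the histone genes over all genes. A called H3K27ac interval lay in the windows of 31 of 55 members (56.4%), against 9.44% of all protein-coding genes and 6.52% of the 6922 genes no longer than the longest member (13229 bp). Most histone genes are much shorter than that, and among the 524 protein-coding genes with a span of up to 1000 bp the share was 6.30%. Of the 33 such short genes with H3K27ac anywhere in the genome, 27 were members. The 35 H3K27ac regions at members were 1.04% of all H3K27ac regions called in the genome and held 1.16% of all covered bp of the set.

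The other active marks were closer to the level of all genes. H3K9ac was found at 33 members (60%), against 60.2% of all genes, 45.8% of genes no longer than the longest member and 14.9% of genes up to 1000 bp. H3K4me2 was found at the same 33 members, against 75.2%, 57.9% and 17.4% of the genes in these backgrounds. H3K4me3 was found at 26 members (47.3%), against 55.8%, 41.1% and 13.2%. For these 3 marks the histone genes stood near or below the level of all genes and above that of genes of their own length. The genes up to 1000 bp include 50 members, which raises their shares. Members were 29 of the 78 such genes with H3K9ac, 29 of the 91 with H3K4me2 and 22 of the 69 with H3K4me3.

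H3K79me2, H3K4me1, H3K27me3 and the H3K36me3/H4K16ac set were at fewer members than the active marks. H3K79me2, deposited by DOT1L over the start of transcribed bodies, was found at 9 members (16.4%) and at 5 of the 50 short ones (10%), against 44.1% of all genes, 31% of genes no longer than the longest member and 8.40% of genes up to 1000 bp. H3K4me1 was found at 2 members, H4C2 and H2BC4, with 450 bp each, against 49.7%, 34% and 6.49%. H3K27me3 was found at 2 members, H2AC1 and H2BC1, against 36.6%, 31.3% and 35.3%. The H3K36me3/H4K16ac set was found at 0 of 55 members, against 50.7%, 33.1% and 5.15%.

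**Figure D1:**
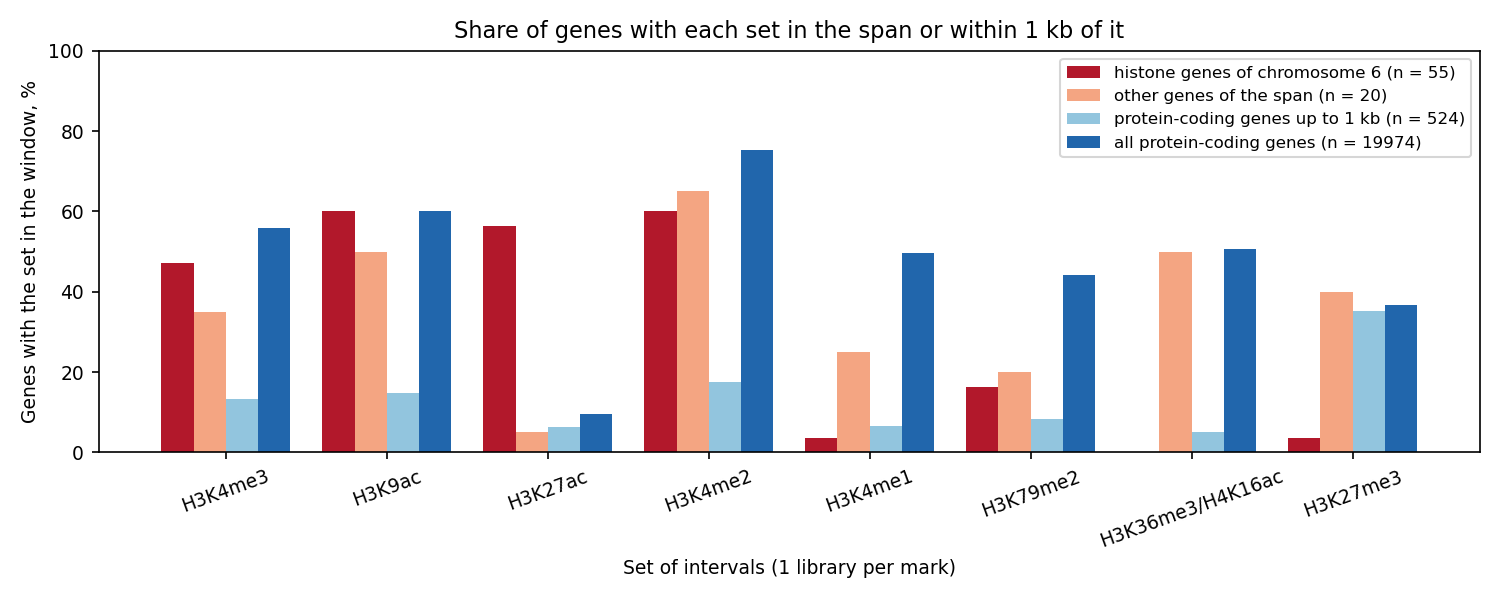
Share of genes (y axis, percent) with each set of intervals (x axis) in the span or within 1 kb of it, for the 55 histone genes of chromosome 6, the 20 other protein-coding genes between the first and the last of them, protein-coding genes with spans up to 1 kb and all protein-coding genes; each bar is 1 count from 1 library and has no error bar. H3K27ac stands at 56.4% for the histone genes and at 9.44% for all genes, and the bar of the H3K36me3/H4K16ac set is at 0 for the histone genes.

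The excess was also present when only genes with an active promoter mark were compared. Among genes with H3K9ac, H3K27ac was present at 31 of 33 members, against 15.4% of the 12019 such genes in all and 6 of the 49 (12.2%) other genes up to 1000 bp. H3K4me3 was present at 26 of the 33, against 90.6% of all genes with H3K9ac and 93.9% of the other short ones. H3K79me2 was present at 9 of the 33, against 72.4% of all genes with H3K9ac and 71.4% of the other short ones. The H3K36me3/H4K16ac set was present at 0 of the 33, against 78.2% of all genes with H3K9ac and 20.4% of the other short ones. H3K4me1 was present at 2 of the 33, against 69.3% and 40.8%. Histone genes with H3K9ac thus had a higher share with H3K27ac than all genes with H3K9ac. Their shares with H3K79me2, the H3K36me3/H4K16ac set and H3K4me1 were lower.

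Other genes of the same stretch of chromosome seldom had H3K27ac. The 20 other protein-coding genes between the first and the last histone gene had H3K9ac in 10 cases and H3K4me3 in 7, but H3K27ac in 1, HMGN4, which encodes a nucleosome-binding protein and had 300 bp. The H3K36me3/H4K16ac set was found at 10 of these 20, among them the butyrophilin gene BTN3A1 and the zinc finger gene ZNF322.

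Within the histone genes, the members fell into few combinations of marks. In 20 members none of the 8 sets was called; H3K9me3, the mark of constitutive heterochromatin, was not analysed here. H3K4me3, H3K9ac, H3K27ac and H3K4me2 were all present, with no other set, in 16 members, and with H3K79me2 in addition in 8. In 5 members, H2AC4, H4C4, H2BC8, H2AC8 and H4C12, H3K9ac, H3K27ac and H3K4me2 were present without H3K4me3. H2AC1 and H2BC1 had H3K27me3 alone. The remaining 4 members each had a combination of their own. H2BC4 had 6 sets, H3C10 had H3K4me3, H3K9ac and H3K4me2 without H3K27ac, H4C2 had H3K4me1 with H3K9ac, H3K27ac and H3K4me2, and H4C3 had H3K9ac and H3K4me2 alone.

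**Figure D2:**
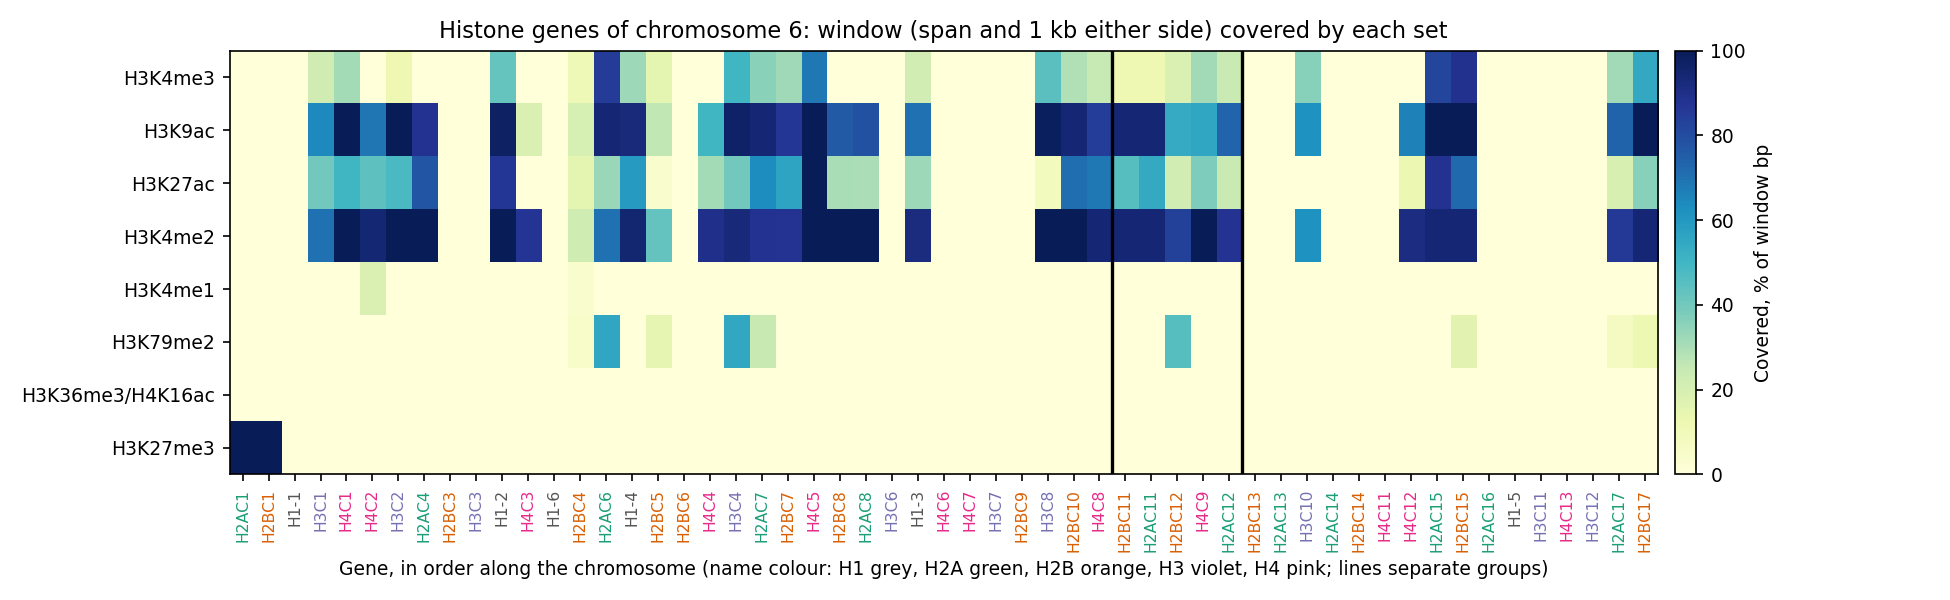
Percent of each window covered (colour scale, 0 to 100) by the 8 sets (rows) at the 55 histone genes in chromosome order (columns), with name colours for the histone class and vertical lines between the 3 groups of genes. Columns with the active marks alternate with blank columns, and H2AC1 and H2BC1 at the left are covered whole by H3K27me3.

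The 26 members with H3K4me3 had 300 to 2329 bp of it, with a median of 900 bp. Most of the window was covered at H2BC15, with 2250 bp (88.5%), H2AC6, with 2140 bp (85.0%), H2AC15, with 2046 bp (82.0%), H4C5, with 1650 bp (68.4%), and H2BC17, with 1341 bp (54.4%). The lowest cover was 300 bp, found at the H3 gene H3C2, at H2BC11 and at H2AC11, and the H2B gene H2BC4 had 1376 bp in a long window (10.8%). The widest H3K4me3 region, at chr6:26124151-26126250, covered 2100 bp over the windows of H2BC4 and H2AC6.

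H3K9ac covered most of the window where it was called, with a median of 86.3% over 33 members. Cover was complete at H4C1, H3C2, H4C5, H2AC15, H2BC15 and H2BC17. It was lowest at H4C3, with 450 bp (18.7%) that began 183 bp outside the gene. The low percentages at H2BC4 (20.2%) and H2BC5 (26.1%) belong to 2576 and 3979 bp in windows made long by annotated spans of 10757 and 13229 bp. The widest H3K9ac region, at chr6:26194501-26199300, covered 4800 bp over the windows of H3C4, H2AC7 and H2BC7.

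H3K4me2 was the most extended of the 4 active marks, with a median of 93.9% of the window at the same 33 members. Its widest region, at chr6:26269051-26275950, covered 6900 bp and spanned the divergent genes H3C8 and H2BC10. The lowest length was 1536 bp, at H3C10, where the H3K4me2 cover equalled the H3K9ac cover.

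H3K27ac cover ranged from 213 to 2412 bp at the 31 members with it, with a median of 40.2% of the window. H4C5, an H4 gene, had the whole window of 2412 bp covered, as no other protein-coding gene had. It was followed by H2AC15 with 2196 bp (88.0%), the H1 gene H1-2 with 2361 bp (86.5%), H2AC4 with 1950 bp (77.2%) and H2BC15 with 1832 bp (72.1%). Of the 20 genes with the highest H3K27ac share of the window in the genome, 13 were members, and of the top 50, 24 were. The order favours short genes, because a region of given width fills more of a short window. For H3K9ac 8 of the top 20 were members, and for H3K4me3 3 of the top 20.

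The lowest H3K27ac values among members that had it were 213 bp at H3C8 (8.53%) and 300 bp at H4C12 (12.6%). Low percentages also came with long windows, at H2BC5, with 630 bp (4.14%), and H2BC4, with 1950 bp (15.3%). The 2 members with H3K9ac and without H3K27ac were H4C3 and H3C10.

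H3K27ac and H3K4me3 lengths differed at single members, and no measure of association between them was computed. H4C5, H2AC15 and H2BC15 were among the members with the most cover of both. Both were present at 25 members, and H3K27ac was the longer at 17 of these. H2AC4 had 1950 bp of H3K27ac and no H3K4me3. At H2AC6 the H3K4me3 cover came to 2140 bp and that of H3K27ac to 829 bp, which lay wholly before its start. Of members with H3K27ac, 25 of 31 had H3K4me3 too, against 91.8% of all genes with H3K27ac. The H3K27ac-positive members without H3K4me3 were H4C2, H2AC4, H4C4, H2BC8, H2AC8 and H4C12.

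**Figure D3:**
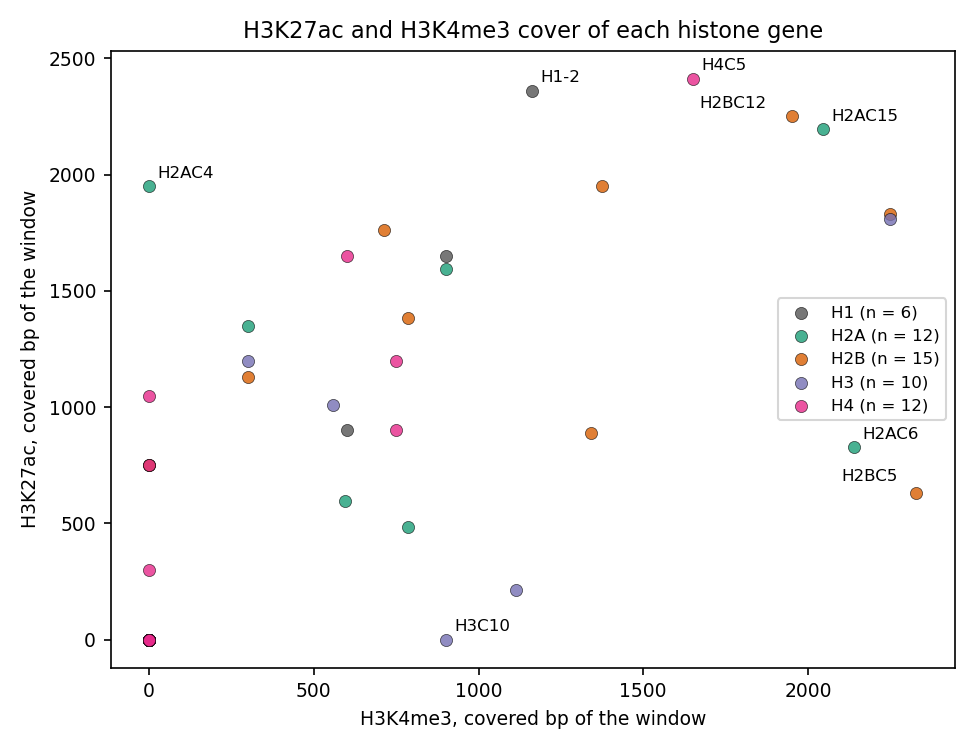
Covered bp of H3K27ac (y axis) against covered bp of H3K4me3 (x axis) in the window of each of the 55 histone genes, coloured by histone class; 23 genes with neither mark lie on top of each other at the origin. H2AC4 is high on the left edge with 1950 bp of H3K27ac and no H3K4me3, and H2AC6 and H2BC5 lie at the lower right.

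H3K27ac and H3K4me3 were seldom called just before the start of a histone gene. For 29 members with H3K27ac and an annotated start, H3K27ac covered the position 650 bp before the start in 20 members (69.0%) and the position 350 bp after it in 24 (82.8%), but the position 100 bp before it in 2 (6.90%). The 1515 other genes with H3K27ac and a start had 22.2% at 650 bp before, 22.8% at 350 bp after and 11.7% at 100 bp before. These values are a description and not a like comparison: a short gene with H3K27ac in its window must have it near the start, while a long gene can have it anywhere in its span, and the positions are the peaks and the low point of the histone genes. H3K4me3 covered the position 250 bp after the start in 19 of the 29 members (65.5%), the start in 6 (20.7%) and the position 100 bp before it in 1 (3.45%). Among the other genes these values were 73.6%, 55.6% and 39.4%. H3K9ac reached the position 100 bp before the start in 16 of 29 members (55.2%) and H3K4me2 in 21 (72.4%), against 65.3% and 64.8% of the other genes. The printed promoters varied in this: H3K27ac covered the promoter of H4C5 whole, and at H1-2 its cover took in the whole span and 930 of the 1000 bp before the start. Divergent members share such a stretch and are not independent of each other.

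**Figure D4:**
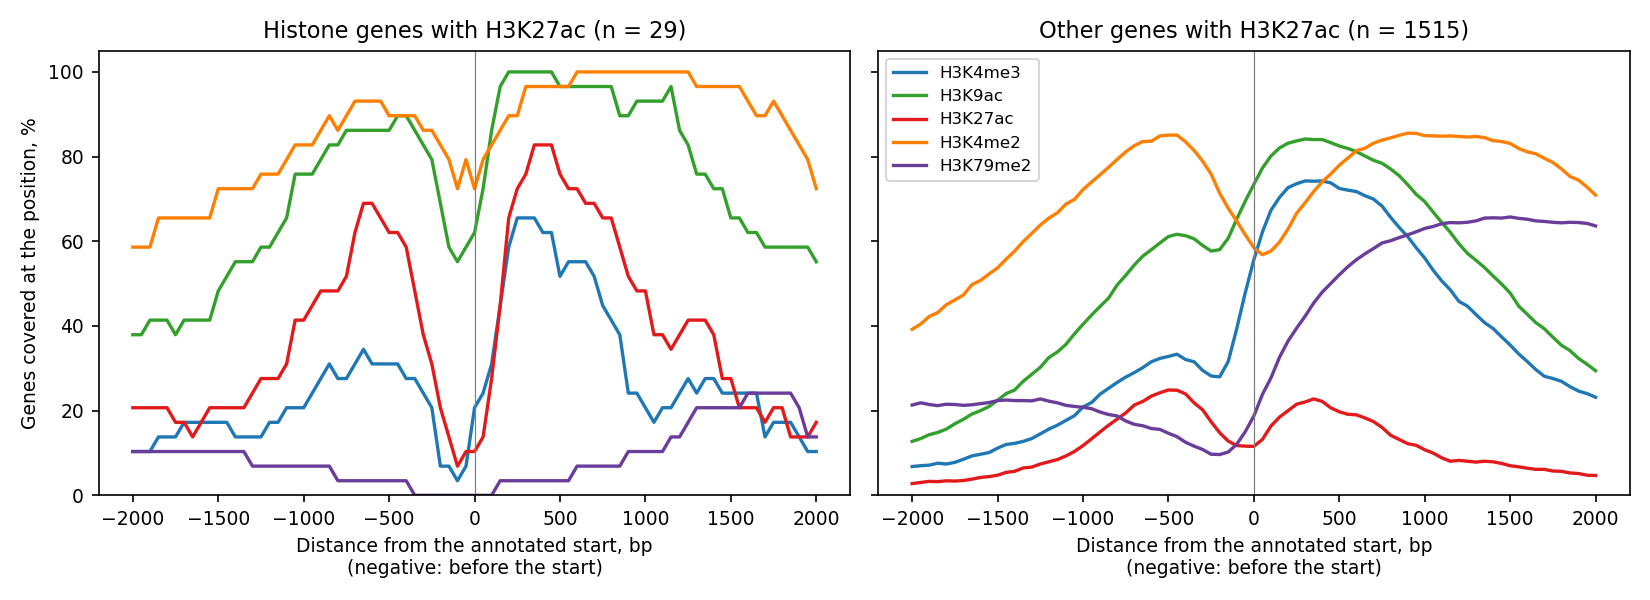
Percent of genes covered (y axis) at each position from 2 kb before to 2 kb after the annotated start (x axis, bp), for 29 histone genes with H3K27ac (left) and 1515 other protein-coding genes with H3K27ac (right), with 1 line per mark. On the left the H3K27ac line has peaks of 69.0% and 82.8% on the sides of a trough of 6.90% at 100 bp before the start, and the H3K79me2 line stays low after the start, where it rises to 65.2% at 1600 bp on the right.

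H3K79me2 at the short histone genes lay mostly beside them and not over them. At 1600 bp after the start H3K79me2 covered 7 of the 29 members with H3K27ac (24.1%), long ones included, against 65.2% of the other genes with H3K27ac. This is not a like comparison, because that position lies beyond the end of a short member but within a longer gene. Of the 5 short members with the mark, only H2AC6 had any of it within the annotated span, 390 of 519 bp. H2AC6 also had the 1 kb after its end covered whole, in a region of 3750 bp at chr6:26124301-26128050. H2AC7 had 617 bp in the 1 kb after its end and none in its span, H2BC15 had 410 bp and H2BC17 300 bp in that position. H2AC17 had 185 bp before its start, in the same region as that after the end of H2BC17.

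The other 4 members with H3K79me2 were H2BC4, H2BC5, H3C4 and H2BC12, whose annotated spans run from 2510 to 13229 bp. The remaining member with a span over 2 kb, H3C6, had no set. H2BC12 held the widest H3K79me2 region of the members, 4800 bp at chr6:27140851-27145650, inside its span of 8566 bp. H2BC5 had 2250 bp within its span, and H3C4 had 1467 bp within its span and the 1 kb after it. The 626 bp at H2BC4 lay before its start, in the region of its divergent partner H2AC6. By class the mark was at 5 H2B, 3 H2A and 1 H3 members and at no H1 or H4 member. Long annotated spans and H3K79me2 went together at 4 of 5 long members and 5 of 50 short ones. Transcript levels or read-through were not measured here.

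The histone classes differed little in how many members had the active marks. H3K9ac was found at 3 of 6 H1 genes, 8 of 12 H2A, 9 of 15 H2B, 5 of 10 H3 and 8 of 12 H4 genes. H3K27ac was found at 3, 8, 9, 4 and 7 of them, and H3K4me3 at 3, 6, 8, 5 and 4. H4 genes thus had H3K27ac in 7 cases and H3K4me3 in 4. Members without any set numbered 3 H1, 3 H2A, 5 H2B, 5 H3 and 4 H4 genes, so that each class held marked and blank copies.

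Among the H1 genes, H1-2 was marked over 97.4% of its window by H3K9ac and 86.5% by H3K27ac. H1-4 followed with 92.3% and 59.2%, and H1-3 with 70.2% and 32.4%. H1-1, H1-5 and H1-6 had no interval of any set. H1-6 encodes the testis linker histone.

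The testis genes H2AC1 and H2BC1 form a divergent pair within the annotated span of the phosphate transporter gene SLC17A1. They were the only members with H3K27me3, and their windows were covered whole by 1 region of 16000 bp at chr6:25723001-25739000. From H2AC1 to H1-1, a stretch of 291.0 kb with 4 SLC17A genes, 66.0% of the sequence was covered by H3K27me3. From H1-1 to H4C8, a stretch of 268.5 kb that holds the rest of the first group of genes, 0 bp were covered, as over the other groups. The 20 members without any set thus had no H3K27me3 either, and for H1-1 the nearest lay 78532 bp away.

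Along the chromosome the members formed 3 groups, split where neighbours were over 300 kb apart. The first held 34 members from H2AC1 to H4C8 (chr6:25726063-26285534), the second 5 from H2BC11 to H2AC12 (chr6:27132316-27147562) and the third 16 from H2BC13 to H2BC17 (chr6:27807479-27893891). They are separated by 847 and 659.9 kb.

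All 5 members of the second group, H2BC11, H2AC11, H2BC12, H4C9 and H2AC12, had H3K4me3, H3K9ac, H3K27ac and H3K4me2. In the first group H3K9ac was at 22 of 34 members and H3K27ac at 21, and 10 had no set. In the third group H3K9ac was at 6 of 16 and H3K27ac at 5, and 10 had no set. The third group thus had the smallest marked share, but its H2AC15 and H2BC15 were among the members with the most cover.

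Marked and blank members alternated in runs. Read from left to right, the 33 members with H3K9ac made 10 runs of 1 to 7 genes and the 22 without it made 9 runs of 1 to 5. The longest marked run, H4C4, H3C4, H2AC7, H2BC7, H4C5, H2BC8 and H2AC8, spanned 28.7 kb (chr6:26188710-26217437). The longest blank run in genes, H2AC16, H1-5, H3C11, H4C13 and H3C12, spanned 25.5 kb (chr6:27865317-27890826), and the next, H4C6, H4C7, H3C7 and H2BC9, 11.7 kb (chr6:26240393-26252075). The blank genes H1-6, H2BC6 and H3C6 each lay alone between 2 marked runs.

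The 20 members without any set were not far from marked sequence. Their distance to the nearest H3K9ac interval ranged from 1.33 kb, at H2AC13, to 24.9 kb, at H2AC16, with a median of 5.80 kb, and 9 of them lay within 5 kb of one. Changes from full cover to none thus took place between close neighbours: the window of H2BC17 was covered whole by H3K9ac, and that of H3C12, next but 1 along the chromosome and 1525 bp from the nearest H3K9ac, had none.

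Among the 50 members with an annotated start, the 10 divergent pairs whose starts lie at most 1000 bp apart were marked or blank together, which their shared windows make likely in advance. Of these pairs, 9 join an H2A and an H2B gene, with starts 194 to 248 bp apart, and 1 joins H3C7 and H2BC9, with starts 979 bp apart. H3K9ac was present at both genes of 6 pairs (H2BC4 and H2AC6, H2AC7 and H2BC7, H2BC8 and H2AC8, H2BC11 and H2AC11, H2AC15 and H2BC15, H2AC17 and H2BC17) and at neither gene of 4. H3C4, which shares the start of H2AC7, was not counted as a further pair with H2BC7, and H2AC12, beside H2BC12, has no start in the table. Cover was not equal within a pair: at the H2AC7 and H2BC7 pair H3K79me2 was found on the side of H2AC7 only, and at H2AC15 and H2BC15 on the side of H2BC15 only.

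The active marks were concentrated in the gene windows and not spread through the clusters. The windows joined into 33 stretches of 142.8 kb in all, and H3K27ac covered 19.8% of them, against 0.406% of the 524.3 kb between windows of a group, 0.0443% of the 1503 kb between groups and 0.0974% of chromosome 6. H3K9ac covered 40.1% of the windows, 2.44% of the sequence between them, 2.06% between groups and 0.737% of the chromosome. H3K4me3 covered 14.8%, 0.432%, 0.908% and 0.482%, and H3K4me2 49.1%, 6.18%, 6.91% and 2.53%. H3K27ac was thus nearly limited to the genes: 3 of its regions between H2AC1 and H2BC17 touched no member window. They lay at chr6:26172751-26173050, at chr6:27835951-27836400 and, at HMGN4, at chr6:26537701-26538000.

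The H3K36me3/H4K16ac and H3K27me3 sets covered less of the windows than of the sequence between them. The H3K36me3/H4K16ac set covered 0 bp of the windows and 6.29% of the sequence between them, near the 6.75% of chromosome 6. Of these 33000 bp, 26000 bp lay from H2AC1 to H1-1, a stretch that includes TRIM38 with 22500 bp in its window. The set covered 0.931% from H1-1 to H4C8, 0% from H2BC11 to H2AC12 and 5.21% from H2BC13 to H2BC17. H3K27me3 covered 2.30% of the windows and 36.2% of the sequence between them, against 31.5% of the chromosome, and all of it in the groups lay between H2AC1 and H1-1. H3K79me2, by contrast, covered 8.13% of the windows, 1.82% of the sequence between them and 1.83% of the chromosome. H3K4me1 covered 0.630% of the windows, 1.14% between them and 1.25% of the chromosome. From H1-1 to H4C8 its cover was 1.40%, and over the groups from H2BC11 to H2AC12 and from H2BC13 to H2BC17 it was 0%.

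**Figure D5:**
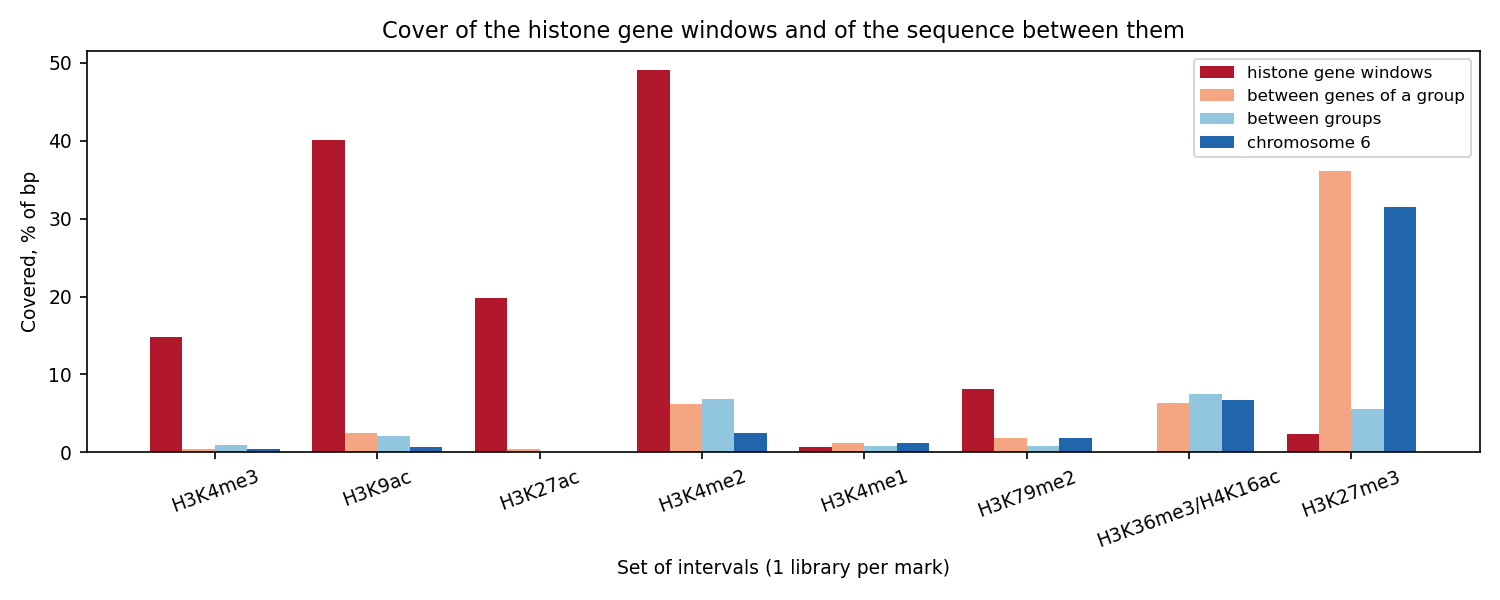
Percent of bp covered (y axis) by each set (x axis) in the joined histone gene windows, between windows of a group, between groups and over chromosome 6; each bar is 1 value from 1 library. The H3K27ac bar stands at 19.8% for the windows and below 0.5% elsewhere, and the H3K36me3/H4K16ac bar is at 0 for the windows.

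Regions at members were often shared between neighbours. Of the 35 H3K27ac regions, 17 touched the windows of at least 2 members, and up to 3 members shared 1 region. The median width was 750 bp for H3K27ac at members, against 600 bp over the genome, 1800 against 900 bp for H3K9ac, 2850 against 1200 bp for H3K4me2 and 675 against 900 bp for H3K4me3. By these medians acetylated regions at histone genes were wider than usual, for H3K27ac by no more than the 150 bp grid, and H3K4me3 regions narrower. Joined over gaps of up to 500 bp, H3K4me3 regions at members had a median of 900 bp. The genome medians were not computed with that join, so the narrower H3K4me3 regions hold for the main join only. The widest H3K27ac region, 2850 bp at chr6:26203201-26206050, lay over H4C5 and its flanks alone.

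Some members have near copies, and reads from such stretches may be hard to place. In 6 of the 50 promoters, those of H2BC13, H2AC13, H2AC14, H2BC14, H4C11 and H4C12, at least 50 bases in a row were shared with another promoter that does not overlap it. Of the 20 members without H3K9ac and with a promoter sequence, 5 were among these, against 1 of the 30 with H3K9ac. These counts are not independent. H2BC13 and H2AC13 are a divergent pair with overlapping promoters, and their matches are the promoters of another such pair, H2AC14 and H2BC14. H4C11 and H4C12 match each other, and of them only H4C12 had H3K9ac. How reads with several matches were treated is not given in the sources used here, and its part in the blank members was not tested.

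The share of histone genes outside chromosome 6 with H3K27ac was above that of all genes, but it rests on few places in the genome. Of 15 replication-dependent histone genes on other chromosomes, 9 had H3K4me3, 11 had H3K9ac and 4 (26.7%) had H3K27ac, against 56.4% of the members on chromosome 6 and 9.44% of all genes. Those 4 were H2BC21 with 1500 bp, H2AC21 with 1165 bp, H2AC20 with 994 bp and H4C16 with 600 bp. H2BC21, H2AC20 and H2AC21 are neighbours on chromosome 1 with overlapping windows and are not independent of each other. H3K79me2 was found at 7 of the 15 and the H3K36me3/H4K16ac set at none, as on chromosome 6.

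Replication-independent histone genes mostly encode variants whose synthesis is not limited to S phase, from polyadenylated transcripts. As a list they stood near the level of all genes for H3K27ac and the H3K36me3/H4K16ac set. Of 12 such genes 6 (50%) had the H3K36me3/H4K16ac set, against 50.7% of all genes. H3K27ac was at 1 (8.33%), the H3.3 gene H3-3A, with 750 bp, against 9.44%. H3K4me3 was at 9 (75%), against 55.8%, and H3K79me2 at 9, against 44.1%. H3K27me3 was found at 1, the macroH2A gene MACROH2A2.

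Most genes of the factors that make and process histone transcripts had H3K4me3, H3K79me2 and the H3K36me3/H4K16ac set. Of 20 genes for transcription and processing factors, 19 (95%) had H3K4me3, against 55.8% of all genes, 17 (85%) had H3K79me2, against 44.1%, and 18 (90%) had the H3K36me3/H4K16ac set, against 50.7%. The exception for H3K4me3 was POU2F2, the gene of the lymphoid octamer factor OCT2, while POU2F1, which encodes OCT1, had it. H3K27ac was found at 1 of the 20, NPAT, with 450 bp. Of 16 histone chaperone genes all 16 had H3K4me3, H3K79me2 and the H3K36me3/H4K16ac set, and 2, RBBP4 and RBBP7, had H3K27ac. Most of these genes are longer than histone genes, and the shares of H3K79me2 and the H3K36me3/H4K16ac set rise with gene length. The lists are therefore not set against the members.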

How the data were processed

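KBM-7 chromatin was immunoprecipitated once for each of 9 marks. What the authors deposited is 1 file of called intervals, each given by its chromosome, its bounds and a mark, with no score, count or signal; the unit of the values is other, a position in bp. Of tools, cutadapt, Bowtie2 and MACS are named in the submitters' processing notes, with the build GRCh38. Not given in the sources used here are versions, thresholds, filters and how an input entered each call. Depth is therefore unknown, and no interval for counting error can be given. Samples were mapped to marks by their titles, which also name the marks of each input. An input was named for H3K9ac, H3K4me3 and H3K79me2, another for H3K27ac, H3K4me1, H3K4me2, H3K36me3 and H4K16ac, and a further for H3K27me3. H3K27ac thus had an input other than that of H3K9ac and H3K4me3.

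Starts were brought to 1 convention, counted from 1, and intervals of 1 mark that overlapped or touched were merged into regions. The starts of most sets lie on a grid of 150 bp and those of H3K36me3/H4K16ac and H3K27me3 on a grid of 500 bp, which limits the precision of every covered length. H3K36me3 and H4K16ac held 45695 identical intervals and were used as 1 set. Intervals under 1 further label, H3K9me3, matched no sample and were not used. Genes, strands and promoters came from RefSeq tables of GRCh38.p14 on chromosomes 1 to 22 and X. Starts and promoters matched 50 of 55 members, all but H4C1, H4C3, H2AC12, H3C11 and H3C12. Covered bp per window were summed with Python 3.11.15, numpy 2.4.6 and pandas 2.3.3, and the join and cover functions were tested on simulated intervals.

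The members and lists were chosen with earlier results of these data known. Named members were, by rule, for each mark the 5 with the most and the 5 with the least cover, every member on the smaller side of a count of 5 or fewer, the testis genes, the ends of each group and the members under the widest regions; the text gives a selection of these, and other genes named were chosen with their values in view. Alternatives were other flanks and overlaps, wider regions only, other joins, other group splits and, added after the data were seen, the genes up to 1000 bp and the 50-base promoter matches.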

Additional observations from a re-analysis of the deposited data

How the results depend on the processing

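No paired analysis was possible because each mark has 1 library. Covered length stands in for signal, and shallow libraries may leave marks uncalled, so blank members cannot be called unmarked. Of 393 values under alternatives for 115 results, 317 stayed within 1.5 times (counts) or close to the main value and 76 moved. The cause of a move was not tested beyond the construction of each alternative.

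With wider regions only (at or above the median width), H3K4me3 was at 16 members in place of 26, at 3 other genes of the span, at 2 H3 and 1 H4 member, and at 9 members of the first and 2 of the second group. H3K4me1 was then at 0 members, 3 other genes of the span and 1427 genes no longer than the longest member, and H3K27ac at 276 such genes, 0 other genes of the span, 0 processing factors and 1 chaperone. The 4 active sets together were at 15 members, and H3K27ac without H3K4me3 at 12. Cover of the windows was 8.72% for H3K4me3, 17.2% for H3K27ac and 0% for H3K4me1. Between members it was 0.200% for H3K4me3, 0.247% for H3K27ac, 5.69% for H3K4me2, 0.744% for H3K4me1, 1.30% for H3K79me2, 4.29% for H3K36me3/H4K16ac and 31.4% for H3K27me3. With 2.5 kb flanks, H3K4me1 was at 9 members, H3K79me2 at 15, H3K36me3/H4K16ac at 1 (and at 2 histone genes on other chromosomes), and H3K4me2 at 5 H1 genes and 10 members of the third group. Windows were then covered to 9.97% by H3K4me3, 30.1% by H3K9ac, 13.5% by H3K27ac, 41.1% by H3K4me2, 1.51% by H3K4me1 and 7.13% by H3K79me2. The sequence between them was covered to 0.169%, 0.664%, 0%, 2.59%, 0.867% and 1.04% by these marks in turn, to 7.40% by H3K36me3/H4K16ac and to 42.3% by H3K27me3.

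With the span alone, H3K4me1 was at 1 member and H3K79me2 at 4, H3K27ac at 5 H2A genes, 3 members of the third group, 0 other genes of the span and 0 chaperones, H3K4me3 at 5 H2B genes and 3 members of the second group, H3K4me1 at 3 other genes of the span and H3K79me2 at 1 histone gene on other chromosomes. With 1 kb around the middle of each gene, H3K4me1 was at 1 member. Without the testis genes, H3K27me3 was at 0 members. Counting only regions at 1 member, H3K4me3 was at 12 members, H3K9ac at 13, H3K27ac at 15, H3K4me2 at 10, H3K79me2 at 4 and H3K27me3 at 0. In place of all genes no longer than the longest member, the genes up to 1000 bp had shares of 13.2% for H3K4me3, 14.9% for H3K9ac, 17.4% for H3K4me2, 6.49% for H3K4me1, 8.40% for H3K79me2 and 5.15% for H3K36me3/H4K16ac. Joining over gaps of up to 500 bp left 22 H3K9ac regions at members, with a median of 3000 bp, 22 H3K27ac regions with a median of 1425 bp, and an H3K79me2 median of 1950 bp. As deposited, H3K79me2 had 13 intervals at members with a median of 600 bp.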

Other observations

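The stretch from H2AC1 to H2BC17 also holds 98 tRNA genes, which are read by RNA polymerase III. H3K9ac lay within 1 kb of 29 of them, H3K4me2 of 41 and H3K4me3 of 17, while H3K27ac lay within 1 kb of 3. The windows of all but 1 of these tRNA genes are apart from those of the histone genes. The H3K36me3/H4K16ac set was at 0 and H3K27me3 at 4 of the 98. Regions of the stretch that touch no histone gene window were assigned first to another protein-coding gene within 1 kb, and only otherwise to a tRNA gene. In this order 23 of the 38 such H3K9ac regions and 11 of the 21 such H3K4me3 regions were assigned to a tRNA gene. For H3K4me2 this was so for 25 of 63 regions, and for H3K27ac (3 regions), H3K79me2 (15) and the H3K36me3/H4K16ac set (22) for 0. These are lower limits for regions near a tRNA gene, because a region near both kinds of gene is not counted. Among the tRNA genes with windows apart from the histone genes, 2 had H3K27ac within 1 kb and 1, TRV-CAC1-6, had H3K79me2. All of the regions assigned to tRNA genes lay between the groups of histone genes and none within a group.

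The stretch holds 11 annotated histone pseudogenes. H3K9ac was at 5 of these, H1-12P, H3C5P, H2AC9P, H2AC10P and H3C9P, and H3K27ac at 3, H1-12P, H2AC9P and H2AC10P. Only 4 of the 11 have windows apart from the windows of functional members, and of those 4, 1 had H3K9ac, 0 had H3K27ac and 3 had H3K27me3. These 3 were H2BC2P, H2AC2P and H2AC3P.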
